A study of Mus musculus with 9 samples.

Results

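A set of 10 imprinted genes with roles in growth, 5 of them long non-coding RNAs and 5 of them protein-coding, was followed in injured mouse skeletal muscle. They were H19, Meg3, Rian, Mirg, Dlk1, Peg3, Mest, Grb10, Plagl1 and Kcnq1ot1, chosen by name, and all 10 were found among the 54532 genes of the deposited table. RNA with poly(A) tails was sequenced from the tibialis anterior, a hind limb muscle, after an injury whose kind and timing the labels used here do not name. The 3 groups were old mice with the genotype P311-/-, with no age in months given, old wild-type mice of 24 months and young wild-type mice of 4 to 6 months, with 3 libraries in each group. The labels used here name no strain, promoter, Cre driver or pooling of animals, and do not say whether the libraries of a group came from separate animals, so the p-values measure only the spread between these libraries.

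Imprinted genes are transcribed mainly from the copy inherited from the mother or mainly from the copy inherited from the father, according to methylation marks set in the germ line. They lie in clusters in which long non-coding RNAs and protein-coding genes share control regions, and many of them act on growth of the fetus and on stem and progenitor cells of adult tissues, muscle included. H19, Meg3, Rian, Mirg and Grb10 are known as maternally expressed in most tissues, and Dlk1, Peg3, Mest, Plagl1 and Kcnq1ot1 as paternally expressed. The reads were not assigned to parental copies, so the values below are total levels of each RNA and imprinting itself was not measured.

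Levels are given as FPKM, fragments scaled to transcript length and to a size factor of each library. The deposited factors followed the median ratio of reads over genes between libraries, not total reads. A unit per length allows levels of different genes to be set side by side. Differences are log2 fold changes of FPKM plus 0.1, with standard errors (SE), from limma across all 14233 genes that passed a filter on low values, and a gene was called at an adjusted p under 0.05. Recovered reads ranged from 14222204 to 31910890 per library, and mitochondrial genes took 8.79% to 17.6% of them. The 8 markers of mature muscle fibres, Ckm and Acta1 among them, summed to between 44091 and 61232 FPKM in the 9 libraries, and no marker of the 9 cell types listed was at 0 in any library. Nrep, the gene that encodes P311, stood at 14.8, 6.37 and 9.72 FPKM in old P311-/- muscle, against 72.4, 71.4 and 83.1 FPKM in old wild-type and 86.3, 72.6 and 63.9 FPKM in young wild-type muscle, a log2 fold change of -2.94 against old wild type (limma, adjusted p = 0.00364, and a call in 18 of 18 alternatives). Old P311-/- replicate 1 stood apart from the other libraries: its quality weight, estimated by limma, was 0.27, the lowest of the 9. The next lowest, 0.687, was that of old P311-/- replicate 2, and the highest, 2.54, that of old P311-/- replicate 3. In the fit with quality weights, replicate 3 therefore counts most in the old P311-/- group. Results that turn on old P311-/- replicate 1 are given with and without it.

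Several of the RNAs are hosts of microRNAs, which are shown because they are known products of the long RNAs described below. RefSeq placed 39 mature microRNAs inside 5 members on GRCm38.p6, of which 26 lay in Mirg, 6 in Rian, 3 in Meg3, 2 in H19 and 2 in Mest. The seed, bases 2 to 8, is in capitals, and the only seed shared within the 39 was that of miR-453 and miR-496a-5p of Mirg.
miR-675-5p (H19): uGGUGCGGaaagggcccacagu
miR-675-3p (H19): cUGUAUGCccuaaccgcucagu
miR-770-5p (Meg3): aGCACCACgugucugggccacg
miR-370-3p (Rian): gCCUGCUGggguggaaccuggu
miR-453 (Mirg): aGGUUGCCucauagugagcuugca
miR-496a-5p (Mirg): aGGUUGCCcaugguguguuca
miR-410-3p (Mirg): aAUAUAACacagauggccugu
miR-335-5p (Mest): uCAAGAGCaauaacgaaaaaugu

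Libraries of poly(A) RNA do not measure mature microRNAs, but the table also holds rows for the hairpin genes. The 14 hairpins inside Mirg had 47, 2 and 28 reads in old P311-/- muscle, against 0, 4 and 3 reads in old wild-type and 11, 25 and 6 reads in young wild-type muscle. The 3 hairpins inside Rian had 34, 0 and 9 reads in old P311-/-, 0, 0 and 1 in old wild-type and 10, 8 and 13 in young wild-type muscle. Both sums were low in old wild-type muscle, and in old P311-/- muscle replicate 1 was high and replicate 2 near 0. These reads are not scaled to depth, which was greatest in old P311-/- replicates 3 and 1, at 31910890 and 25652596 reads. The hairpins inside H19 and Meg3 had 0 reads in every library, and that inside Mest had 11 reads over all 9. H19 itself had 36133 to 140349 reads per library. How reads that overlap both a hairpin and its host were counted is not stated, so a 0 does not show that the RNA was absent.

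H19 was by far the most abundant member, and its levels separated old P311-/- from old wild-type muscle without passing the test across all genes. H19 (ENSMUSG00000000031, chromosome 7, 142575529 to 142578143, minus strand, GRCm38) is a long non-coding RNA next to the growth factor gene Igf2, abundant in fetal tissues and in muscle. It stood at 1116, 822 and 905 FPKM in old P311-/- muscle, at 1192, 1569 and 2361 FPKM in old wild-type muscle and at 1178, 1213 and 986 FPKM in young wild-type muscle. All 3 old P311-/- libraries lay below all 3 old wild-type libraries, with the smallest gap between the replicates numbered 1. The old P311-/- libraries overlapped the young wild-type ones, and so did the old wild-type libraries. In bulk muscle, fewer cells of a type and less RNA per cell cannot be told apart.

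The mean level of H19 was 948 ± 152 FPKM in old P311-/-, 1708 ± 597 FPKM in old wild-type and 1126 ± 122 FPKM in young wild-type muscle (SD, n = 3 each). The log2 fold change of old P311-/- over old wild type was -0.80 (SE 0.24), with a limma adjusted p of 0.253. That of old over young wild type was 0.55 (SE 0.24), with a limma adjusted p of 0.184, and that of old P311-/- over young wild type was -0.25 (SE 0.24), with a limma adjusted p of 0.562. Without old P311-/- replicate 1, H19 was called lower in old P311-/- than in old wild-type muscle, at a log2 fold change of -0.93 (limma adjusted p = 0.0438), but so were 6.2% of all genes tested. With libraries weighted by quality it was also called (limma adjusted p = 0.0228), beside 19.1% of all genes in either direction. Without old wild-type replicate 3, the highest library, the log2 fold change over old wild type was -0.54 (limma adjusted p = 0.482). That of old over young wild type was then 0.29 (limma adjusted p = 0.465). Igf2, its neighbour, stood at 5.15, 2.07 and 3.67 FPKM in old P311-/-, 2.13, 2.99 and 4.17 FPKM in old wild-type and 3.31, 3.18 and 2.68 FPKM in young wild-type muscle, and its groups overlapped in all comparisons.

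**Figure D1:**
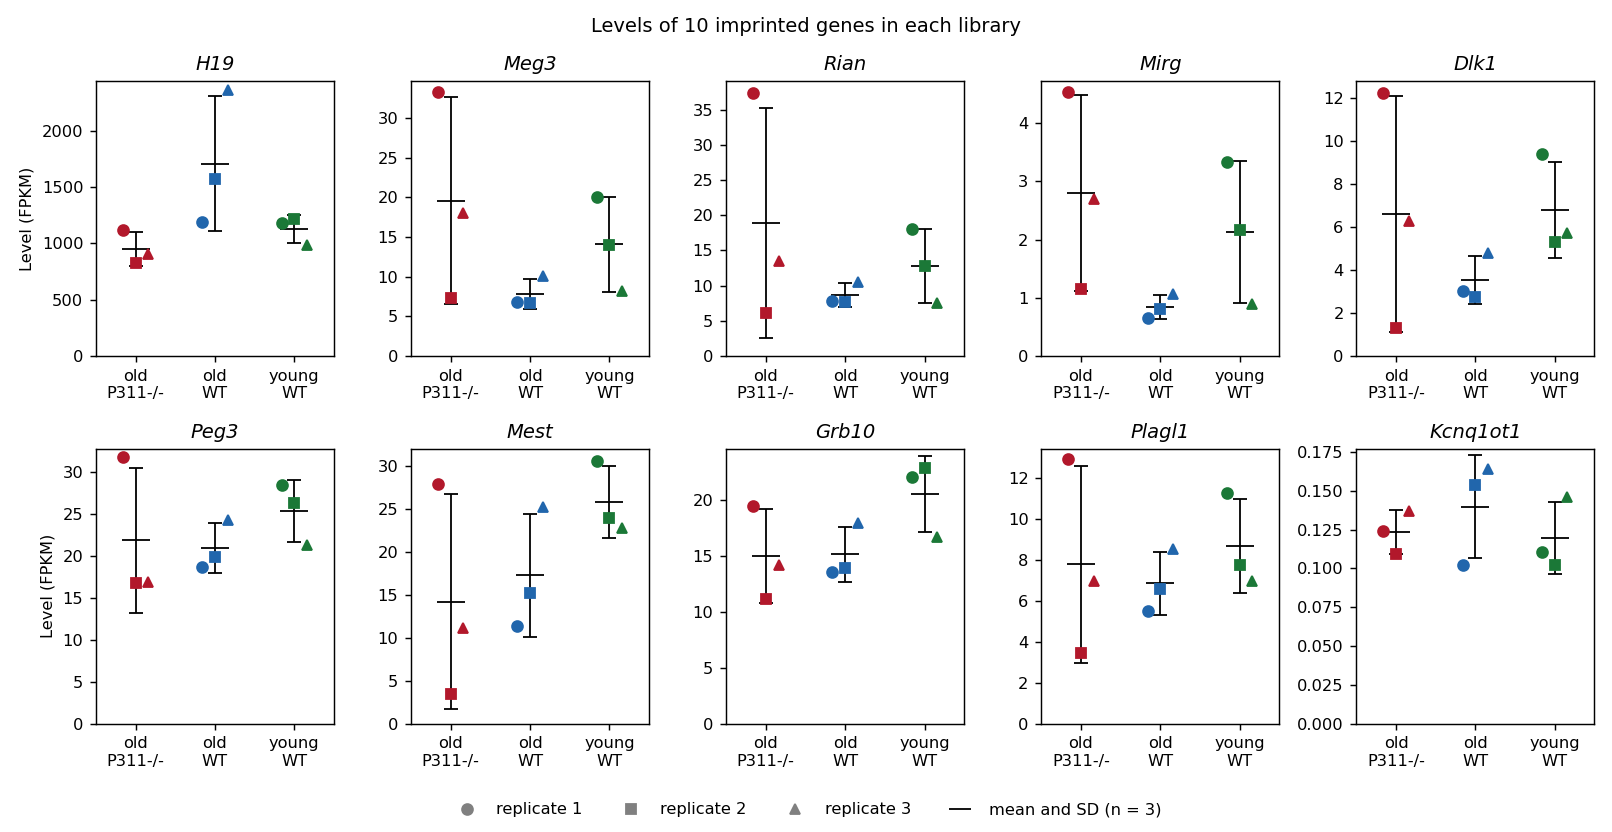
Level of each of the 10 genes in FPKM (vertical axis, from 0, on a scale of its own for each gene) in every library of the 3 groups, with the mean and SD of each group (n = 3). H19 lies between 822 and 2361 FPKM and Kcnq1ot1 below 0.17 FPKM. For Meg3, Rian, Mirg, Dlk1, Peg3, Mest, Grb10 and Plagl1 the widest spread is that of the 3 old P311-/- libraries.

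Meg3, Rian and Mirg, maternally expressed RNAs of the Dlk1-Dio3 cluster on chromosome 12, had their lowest group means in old wild-type muscle and nearly the same order of libraries within each group. Mirg differed from Meg3 and Rian only in the order of old wild-type replicates 1 and 2. Meg3 (ENSMUSG00000021268, 109541001 to 109571726, plus strand) is a long non-coding RNA known as a growth suppressor. Rian (ENSMUSG00000097451, 109603940 to 109661716, plus strand) carries small nucleolar RNAs and microRNAs, and Mirg (ENSMUSG00000097391, 109729764 to 109749460, plus strand) carries the densest set of microRNAs of the cluster.

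Meg3 stood at 33.3, 7.36 and 18.1 FPKM in old P311-/- muscle, against 6.74, 6.72 and 10.01 FPKM in old wild-type and 20.1, 14 and 8.15 FPKM in young wild-type muscle. Its old P311-/- replicate 1 was the highest of the 9 libraries, and old P311-/- replicate 2 lay among the old wild-type values. The means were 19.6 ± 13 FPKM in old P311-/-, 7.82 ± 1.90 FPKM in old wild-type and 14.1 ± 5.97 FPKM in young wild-type muscle (SD, n = 3 each). Its log2 fold change over old wild type was 1.09 (SE 0.50), with a limma adjusted p of 0.320. Without old P311-/- replicate 1 it was 0.58 (limma adjusted p = 0.427), and without old P311-/- replicate 2 it was 1.66 (limma adjusted p = 0.325), the same direction in both.

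Rian stood at 37.3, 6.06 and 13.4 FPKM in old P311-/- muscle, against 7.78, 7.59 and 10.6 FPKM in old wild-type and 18.1, 12.8 and 7.53 FPKM in young wild-type muscle. The groups overlapped in all 3 comparisons, with old P311-/- replicate 1 the highest library and old P311-/- replicate 2 the lowest. The log2 fold change of old P311-/- over old wild type was 0.76 (SE 0.56, limma adjusted p = 0.508), and without old P311-/- replicate 1 it was 0.08 (limma adjusted p = 0.915). It was 1.38 without old P311-/- replicate 2 (limma adjusted p = 0.371).

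Mirg stood at 4.53, 1.16 and 2.70 FPKM in old P311-/- muscle, against 0.657, 0.811 and 1.07 FPKM in old wild-type and 3.34, 2.17 and 0.895 FPKM in young wild-type muscle. All 3 old P311-/- libraries lay above all 3 old wild-type libraries, while the young wild-type libraries overlapped both groups. Mirg had the largest log2 fold change of the members in this comparison, 1.45 (SE 0.52), which did not pass across all genes (limma adjusted p = 0.268). Its log2 fold change of old over young wild type was -1.09 (SE 0.52), with a limma adjusted p of 0.218. Without old P311-/- replicate 1 its log2 fold change over old wild type was 1.01 (limma adjusted p = 0.225).

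Levels relative to Meg3 in the same library do not depend on library scaling, and they differed between libraries. The ratio of Mirg to Meg3 was 0.136, 0.157 and 0.15 in old P311-/- muscle, against 0.0975, 0.121 and 0.107 in old wild-type muscle, with no overlap, and 0.166, 0.155 and 0.11 in young wild-type muscle. The ratio of Dlk1 to Meg3 was lower in every old P311-/- library than in the other groups, at 0.368, 0.173 and 0.349 in old P311-/-, 0.448, 0.411 and 0.479 in old wild-type and 0.467, 0.377 and 0.7 in young wild-type muscle. That of Rian to Meg3 was 1.12, 0.823 and 0.745 in old P311-/-, 1.15, 1.13 and 1.05 in old wild-type and 0.9, 0.912 and 0.924 in young wild-type muscle. The old wild-type ratios of Rian to Meg3 lay above all young wild-type ones. A two-sided exact permutation test gave p = 0.1 for the Mirg ratio between old P311-/- and old wild type, for the Dlk1 ratio between old P311-/- and each wild-type group, and for the Rian ratio between old and young wild type. That is the smallest p that 3 libraries against 3 allow, and these ratios were chosen after the values had been seen.

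Dlk1 (ENSMUSG00000040856, chromosome 12, 109452823 to 109463336, plus strand), the paternally expressed protein-coding gene at the other side of the Meg3 control region, encodes a membrane protein related to Notch ligands that is known to restrain fat cell formation. It stood at 12.2, 1.28 and 6.30 FPKM in old P311-/- muscle, against 3.02, 2.76 and 4.80 FPKM in old wild-type and 9.37, 5.28 and 5.71 FPKM in young wild-type muscle. The 3 old wild-type libraries lay below all young wild-type ones, and the old P311-/- libraries held both the highest and the lowest level of the 9. The log2 fold change of old over young wild type was -0.92 (SE 0.66, limma adjusted p = 0.401), and that of old P311-/- over old wild type was 0.44 (SE 0.66, limma adjusted p = 0.764). The second of these was -0.25 without old P311-/- replicate 1 (limma adjusted p = 0.814), so its direction rested on that library.

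Rtl1, a paternally expressed gene of the same cluster that lies opposite a maternally expressed antisense transcript, stood at 3.15, 0.246 and 1.35 FPKM in old P311-/- muscle, against 0.573, 0.361 and 0.456 FPKM in old wild-type and 1.02, 1.28 and 0.923 FPKM in young wild-type muscle. Its level in old P311-/- replicate 1 was 12.8 times that in replicate 2, and Dlk1 had a ratio of 9.59 between the same libraries. Whether counting used strand is not stated in the sources used here, so reads of Rtl1 and of its antisense transcript cannot be told apart, and the same holds for Kcnq1ot1 and Kcnq1.

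Across the 9 libraries, the levels of Meg3 and Rian were correlated with r = 0.963 and rho = 0.867 on the log2 scale (exact permutation p = 7.99e-05 and p = 0.00451, two-sided; 0.00144 and 0.0203 after Benjamini-Hochberg adjustment over 36 pairs of members). Those of Meg3 and Mirg were correlated with r = 0.973 and rho = 0.933 (adjusted exact permutation p = 0.00144 and p = 0.00675). With the 2 libraries farthest from the median of Meg3 left out, r was 0.915 for Rian and 0.949 for Mirg, and with the group means removed it was 0.981 and 0.969. Meg3 and Dlk1, which are expressed from opposite parental copies, had r = 0.841 and rho = 0.9 (adjusted exact permutation p = 0.0114 and p = 0.0146), and r was 0.667 without the 2 farthest libraries. H19 and Meg3 had r = -0.147 and rho = -0.217 (adjusted exact permutation p = 0.752 and p = 0.615).

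**Figure D2:**
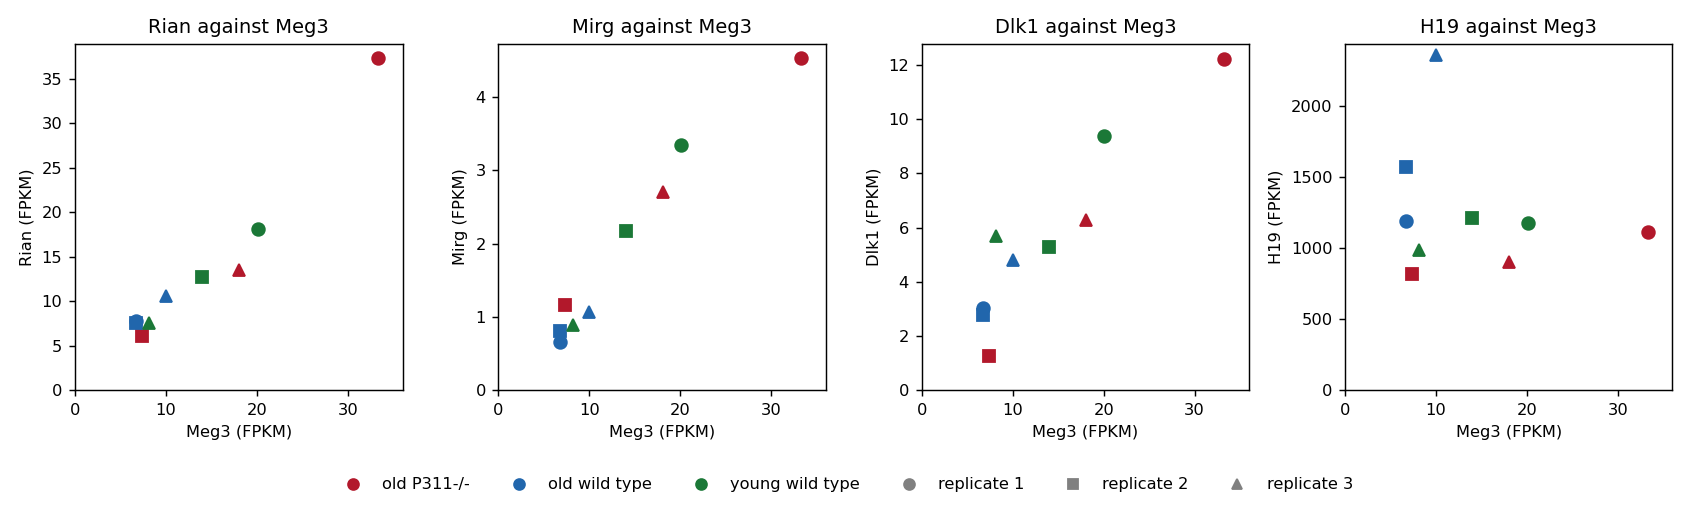
Levels of Rian, Mirg, Dlk1 and H19 in FPKM (vertical axes) against that of Meg3 in FPKM (horizontal axis), 1 point per library, with colour for the group and shape for the replicate. Rian, Mirg and Dlk1 are high where Meg3 is high, with old P311-/- replicate 1 at the top right at 33.3 FPKM of Meg3, while the highest H19 level, 2361 FPKM in old wild-type replicate 3, falls at 10.01 FPKM of Meg3.

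Of the 36 pairs of members, 19 had an adjusted exact permutation p under 0.05 for r, and 13 of these also had one for rho. None of the 8 pairs with H19 was among them, and their r ran from -0.256 to 0.493. In the 28 pairs without H19, r ran from 0.38 to 0.973, and from 0.267 to 0.967 without old P311-/- replicate 1. With group means removed, r was 0.732 to 0.981 in the pairs without H19 and 0.533 to 0.794 in those with it. The libraries are the same in every pair, so these values are not independent of each other. The permutation exchanged all 9 libraries whatever their group. Pairs of other genes were not counted, so these counts do not set the members apart from other genes.

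The paternally expressed protein-coding genes outside the cluster, Peg3, Mest and Plagl1, had their highest group means in young wild-type muscle, and none was called in any comparison of all 9 libraries. Peg3 (ENSMUSG00000002265, chromosome 7, 6703892 to 6730431, minus strand) encodes a zinc finger protein known from muscle stem cells and other adult progenitors. It stood at 31.8, 16.8 and 16.9 FPKM in old P311-/- muscle, against 18.6, 19.8 and 24.3 FPKM in old wild-type and 28.4, 26.3 and 21.2 FPKM in young wild-type muscle. Old P311-/- replicate 1 was the highest of the 9 libraries and the other old P311-/- libraries were the lowest. Relative to young wild type, old P311-/- muscle differed by a log2 fold change of -0.27 (SE 0.24, limma adjusted p = 0.541).

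Mest (ENSMUSG00000051855, chromosome 6, 30723547 to 30748465, plus strand) encodes an enzyme-like protein of the endoplasmic reticulum that is known as a marker of growing fat tissue and of mesoderm. Its levels were 28.0, 3.49 and 11.2 FPKM in old P311-/- muscle, against 11.4, 15.2 and 25.2 FPKM in old wild-type and 30.6, 24.0 and 22.8 FPKM in young wild-type muscle. Old P311-/- replicates 2 and 3 were the lowest of all 9 libraries, and replicate 1 lay within the young wild-type range. The mean was 14.2 ± 12.5 FPKM in old P311-/-, 17.3 ± 7.15 FPKM in old wild-type and 25.8 ± 4.17 FPKM in young wild-type muscle (SD, n = 3 each). The log2 fold change of old P311-/- over young wild type was -1.30 (SE 0.61, limma adjusted p = 0.253), the largest of the members in that comparison. Without old P311-/- replicate 1 it was -2.01 (SE 0.49), and Mest was called (limma adjusted p = 0.0294). It was -0.53 without old P311-/- replicate 2, with no call (limma adjusted p = 0.608).

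Plagl1 (ENSMUSG00000019817, chromosome 10, 13060504 to 13131694, plus strand) encodes a zinc finger transcription factor that halts the cell cycle and is known in mice to regulate other imprinted genes. It stood at 12.9, 3.43 and 6.97 FPKM in old P311-/- muscle, against 5.49, 6.55 and 8.51 FPKM in old wild-type and 11.3, 7.73 and 6.98 FPKM in young wild-type muscle. Here too old P311-/- replicates 1 and 2 were the highest and the lowest of the 9. Its log2 fold change was 0.01 over old wild type (SE 0.40, limma adjusted p = 0.994) and -0.32 over young wild type (SE 0.40, limma adjusted p = 0.678), while that of old over young wild type was -0.33 (SE 0.40, limma adjusted p = 0.644).

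Grb10 (ENSMUSG00000020176, chromosome 11, 11930508 to 12038683, minus strand) encodes an adaptor that binds the insulin and insulin-like growth factor receptors and dampens their signal. It stood at 19.5, 11.2 and 14.2 FPKM in old P311-/- muscle, against 13.5, 13.9 and 18.0 FPKM in old wild-type and 22.1, 22.9 and 16.7 FPKM in young wild-type muscle. The highest 2 libraries were young wild type, and the groups overlapped in all 3 comparisons. Its log2 fold changes were -0.48 for old P311-/- over young wild type (SE 0.21, limma adjusted p = 0.237) and -0.44 for old over young wild type (SE 0.21, limma adjusted p = 0.229). Old P311-/- and old wild-type muscle differed by -0.04 (SE 0.21, limma adjusted p = 0.936).

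Kcnq1ot1 (ENSMUSG00000101609, chromosome 7, 143203458 to 143296549, minus strand) is a paternally expressed RNA antisense to Kcnq1 that is known to silence neighbours such as the cell cycle inhibitor gene Cdkn1c. It stood at 0.124, 0.109 and 0.137 FPKM in old P311-/- muscle, against 0.102, 0.154 and 0.164 FPKM in old wild-type and 0.111, 0.102 and 0.146 FPKM in young wild-type muscle. The levels came from 156 to 386 recovered reads per library over 93092 bases, and the gene fell below the filter of 0.5 FPKM and was not tested. Its groups overlapped in all comparisons. Cdkn1c stood at 60.6, 23.5 and 41.3 FPKM in old P311-/- muscle, against 26.4, 27.1 and 36.5 FPKM in old wild-type and 58.0, 52.0 and 52.3 FPKM in young wild-type muscle. All old wild-type libraries lay below all young wild-type ones, at a log2 fold change of -0.86 (SE 0.29, limma adjusted p = 0.102).

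By mean level over the 9 libraries, the order of the members was H19 at 1260 FPKM, Peg3 at 22.7, Mest at 19.1, Grb10 at 16.9, Meg3 at 13.8, Rian at 13.5, Plagl1 at 7.76, Dlk1 at 5.64, Mirg at 1.92 and Kcnq1ot1 at 0.128 FPKM. H19 was above every other member and Kcnq1ot1 below every other member in every library. The ranges of Peg3, Mest, Grb10, Meg3 and Rian over the libraries overlapped, and so did those of Plagl1 and Dlk1. Within every library, though, Plagl1 was above Dlk1 and Peg3 was above Grb10. The order of Mest, Meg3 and Rian changed between libraries.

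No member was called in any comparison of the 9 libraries, with limma at an adjusted p under 0.05. Between old and young wild type 0 of the 9 members tested were called, where 5.4% of all genes tested were. Between old P311-/- and old wild type 0 of 9 were called, against 0.0703% of all genes, and between old P311-/- and young wild type 0 of 9, against 0.4%. At an unadjusted p under 0.05, limma had 1, 2 and 0 members in these comparisons, H19 in the first and H19 and Mirg in the second, where 26.3%, 16.1% and 21.4% of all genes had such a p. With voom on recovered reads, a variant of limma for counts, 0 members were called in each comparison, against 7.06%, 0.0492% and 0.977% of all genes. An unadjusted p under 0.05 by voom was found for 2, 2 and 1 members, against 25.9%, 17.3% and 21.7% of all genes.

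The share of members whose groups did not overlap was near or below that of all genes. Between old P311-/- and old wild type, H19 and Mirg did not overlap, 2 of the 9 tested, where 18% of all genes tested did not. Between old and young wild type this held for Dlk1 alone, 1 of 9, against 37.1% of all genes, and between old P311-/- and young wild type for 0 of 9, against 23.5%. The median log2 fold change of the 9 members was -0.49 for old over young wild type, where that of all genes was 0.00, and 8 of the 9 were below 0, with H19 the exception. For old P311-/- over old wild type it was 0.01, with 6 of 9 above 0, and for old P311-/- over young wild type -0.27, with 6 of 9 below 0. The comparisons share libraries, and the old wild-type group enters the first and second of them with opposite sign.

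**Figure D3:**
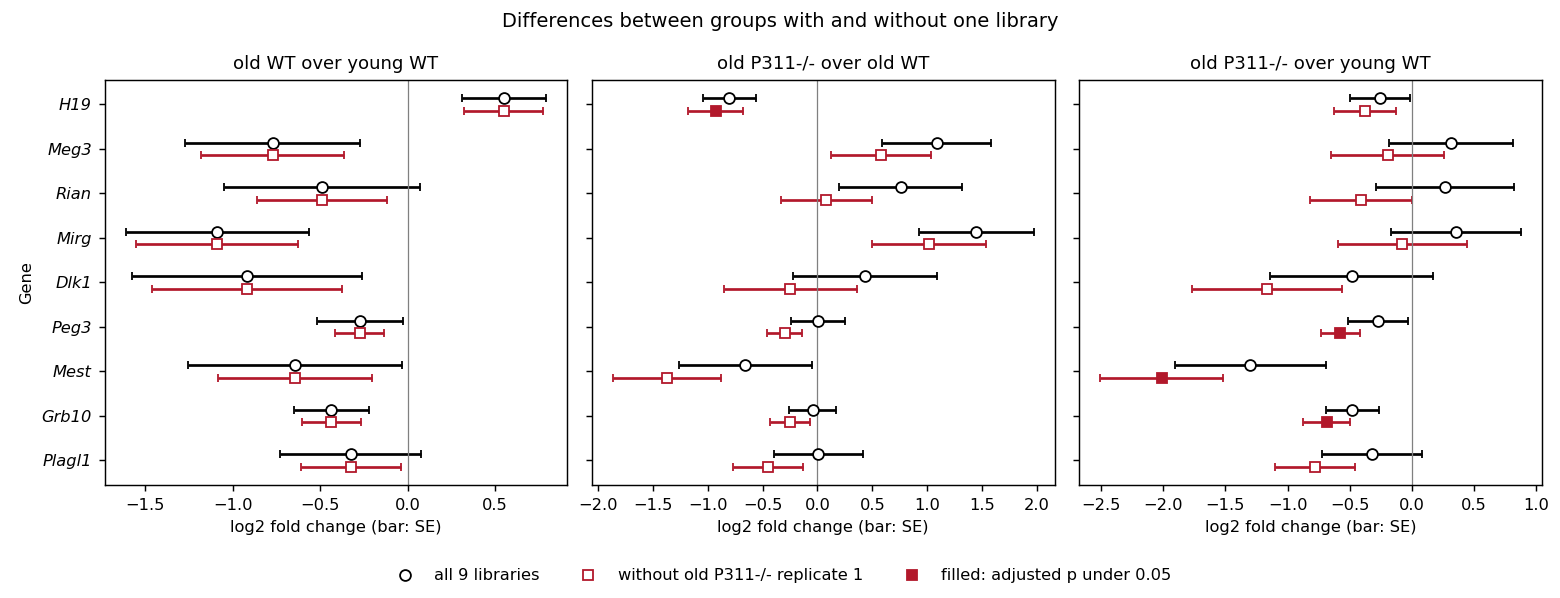
Log2 fold change of the 9 members tested (horizontal axes, bars for the SE) in the 3 comparisons, with all 9 libraries as circles and without old P311-/- replicate 1 as squares, filled where the adjusted p is under 0.05. No circle is filled, and without that library H19 over old wild type at -0.93 and Mest at -2.01, Peg3 at -0.57 and Grb10 at -0.69 over young wild type are.

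Without old P311-/- replicate 1, 3 members were called lower in old P311-/- than in young wild-type muscle. These were Mest, with the values above, Peg3 at a log2 fold change of -0.57 (SE 0.16, limma adjusted p = 0.0347) and Grb10 at -0.69 (SE 0.19, limma adjusted p = 0.0338). In that fit 19.6% of all genes were called and 9.22% were called lower, so calls were also more frequent among all genes. With quality weights Grb10 was called in the same comparison (limma adjusted p = 0.0458), where 22.3% of all genes were. Without that library the old P311-/- group holds 2 libraries. Leaving out old P311-/- replicate 2 instead gave smaller differences over young wild type, at -0.12 for Peg3 (limma adjusted p = 0.883), -0.29 for Grb10 (limma adjusted p = 0.574) and -0.53 for Mest, and called none of them.

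What the members shared most was the order of their libraries within groups. In old P311-/- muscle, replicate 1 was above replicate 3 and replicate 3 above replicate 2 in all 9 members tested, against 21.8% of all genes tested. Its replicate 1 was the highest of all 9 libraries in 6 of 9 members, against 6.04% of all genes, and replicate 2 was the lowest in 7 of 9, against 16%. In old wild-type muscle, replicate 3 was the highest of its group in all 9 members, against 32% of all genes. In young wild-type muscle, replicate 1 was above 2 and 2 above 3 in 6 of 9 members, against 17.1%. The members are correlated with each other, and no test was made of these shares.

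The span of the old P311-/- group differed widely between members. Between replicates 1 and 2, FPKM differed by a factor of 9.59 in Dlk1, 8.02 in Mest, 6.16 in Rian, 4.52 in Meg3, 3.91 in Mirg and 3.76 in Plagl1. The factor was 1.89 in Peg3, 1.74 in Grb10 and 1.36 in H19. On the log2 scale the range within old P311-/- muscle had a median of 1.88 over the 9 members and of 0.506 over all genes tested. A share of 0.794% of all genes tested had a wider range there than Dlk1, 1.02% a wider one than Mest and 1.59% a wider one than Rian, whereas 56.9% had a wider range than H19. The median range was 0.62 over the members and 0.37 over all genes in old wild-type muscle, and 0.68 and 0.34 in young wild-type muscle.

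**Figure D4:**
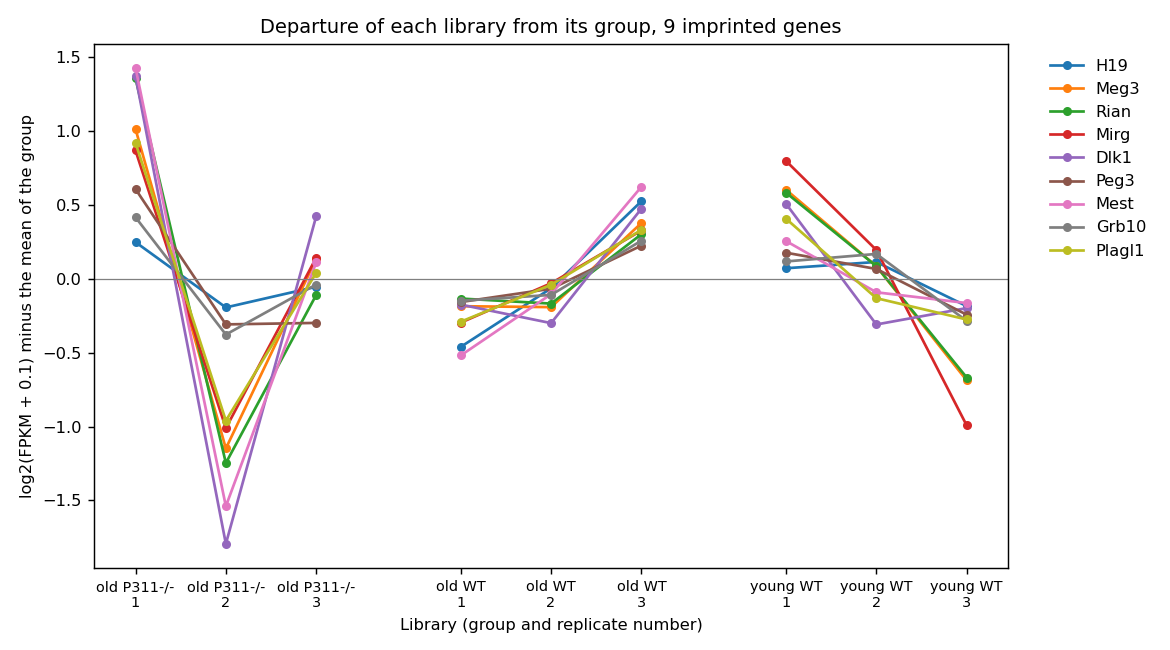
Departure of each library from the mean of its group, in log2 of FPKM plus 0.1 (vertical axis), for the 9 members tested, with the libraries of each group along the horizontal axis and 1 line per gene. In old P311-/- muscle all 9 lines are above 0 in replicate 1 and below 0 in replicate 2, and in old wild-type muscle all 9 are highest in replicate 3.

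Markers of other cell types moved with that order in old P311-/- muscle. The 8 markers of myoblasts and new fibres summed to 1038, 283 and 357 FPKM in its replicates 1 to 3, against 655 to 1112 FPKM in old wild-type and 751 to 1020 FPKM in young wild-type muscle. The sum is weighted to abundant genes: over old wild type, 5 of the 8 had a log2 fold change above 0, the median was 0.03 and none was called by limma. Among them Actc1, an actin of developing fibres, had a log2 fold change of -1.27 and Myh3, the embryonic myosin heavy chain, one of 0.75. The 6 macrophage markers summed to 1332, 574 and 768 FPKM in old P311-/-, 1032 to 1486 FPKM in old wild-type and 1227 to 1935 FPKM in young wild-type muscle. The 4 adipocyte markers summed to 36.6, 11.5 and 15.6 FPKM in old P311-/-, 7.62 to 17.7 FPKM in old wild-type and 9.20 to 19.9 FPKM in young wild-type muscle. In each of these lists old P311-/- replicate 1 was the highest of its group and replicate 2 the lowest, as for the 9 members tested, and their part in the members' levels was not tested.

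The 7 markers of fibro-adipogenic progenitors summed to 635, 453 and 467 FPKM in old P311-/-, 546 to 771 FPKM in old wild-type and 613 to 689 FPKM in young wild-type muscle. The 6 satellite cell markers summed to 27.2, 24.1 and 26.3 FPKM in old P311-/-, 27.5 to 28.6 FPKM in old wild-type and 28.4 to 34.7 FPKM in young wild-type muscle. Both lists had the members' order in old P311-/- muscle, replicate 1 above 3 above 2, with a narrow span for satellite cells. All old P311-/- satellite cell sums lay below all wild-type ones, narrowly so at 27.2 against 27.5 FPKM. Over old wild type, 2 of these 6 markers had a log2 fold change above 0, Pax7 at 0.26 and Cdh15 at 0.45. The other 4 were below 0, and none of the 6 was called by limma. Tenocyte and Schwann cell markers ran the other way, at 17.6, 36.6 and 35.5 FPKM and at 4.57, 10.7 and 9.47 FPKM in old P311-/- replicates 1 to 3. The tenocyte sums were 32.6 to 44.7 FPKM in old wild-type and 26.0 to 58.1 FPKM in young wild-type muscle, and the Schwann cell sums 2.35 to 4.37 and 1.71 to 4.70 FPKM.

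The 5 endothelial markers summed to 48.0, 34.3 and 37.0 FPKM in old P311-/-, 35.1, 47.5 and 55.1 FPKM in old wild-type and 41.9, 41.6 and 37.5 FPKM in young wild-type muscle, with replicate 1 again the highest and replicate 2 the lowest in old P311-/- muscle and replicate 3 the highest in old wild-type muscle. Mature fibre markers were lowest in old P311-/- replicate 1 and in old wild-type replicate 3, at 50068, 60306 and 54690 FPKM in old P311-/-, against 61232, 53687 and 50315 FPKM in old wild-type and 48063, 44648 and 44091 FPKM in young wild-type muscle. The mitochondrial share of reads was also lowest in old P311-/- replicate 1 and highest in replicate 2, at 9.47%, 14.1% and 10.7%, against 13.2%, 17.6% and 13.6% in old wild-type and 10.7%, 8.79% and 10.6% in young wild-type muscle. The part of these in the members' levels was not tested.

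The sequences at the starts of Meg3, Peg3 and Mest are shown as examples, and their part in the members' levels was not tested. RefSeq gave 13 promoter windows for 9 members on GRCm38.p6, each from 250 bases before to 50 bases after a start, and none was listed for H19. Both strands were searched for TGCCGC, the letters bound by the imprint-protecting factor ZFP57 when methylated, for TGACGTCA, the cAMP response element, and for TATAAA, the TATA box. Matches are in capitals, and a match on the reverse strand appears as its complement read backwards.
Meg3, chr12:109540746-109541045, plus strand: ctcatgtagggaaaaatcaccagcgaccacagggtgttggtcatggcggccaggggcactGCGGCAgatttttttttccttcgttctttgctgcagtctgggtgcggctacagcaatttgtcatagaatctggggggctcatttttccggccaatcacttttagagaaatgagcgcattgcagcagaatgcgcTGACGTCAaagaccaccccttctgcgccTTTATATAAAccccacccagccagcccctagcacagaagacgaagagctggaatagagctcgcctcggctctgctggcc
Peg3, chr7:6730370-6730669, minus strand: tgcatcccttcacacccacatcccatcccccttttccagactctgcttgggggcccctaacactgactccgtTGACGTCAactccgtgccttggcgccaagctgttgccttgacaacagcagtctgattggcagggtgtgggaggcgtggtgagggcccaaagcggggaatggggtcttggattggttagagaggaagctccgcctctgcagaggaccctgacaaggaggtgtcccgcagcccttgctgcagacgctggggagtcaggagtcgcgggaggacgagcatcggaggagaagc
Mest, chr6:30737800-30738099, plus strand: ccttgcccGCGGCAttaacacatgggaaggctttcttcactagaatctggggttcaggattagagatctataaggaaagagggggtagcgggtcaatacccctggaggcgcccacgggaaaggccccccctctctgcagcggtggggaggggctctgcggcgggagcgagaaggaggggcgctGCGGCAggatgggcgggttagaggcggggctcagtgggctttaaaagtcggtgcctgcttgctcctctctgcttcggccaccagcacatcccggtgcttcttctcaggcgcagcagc

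The Meg3 window held TGACGTCA at position -57 from the start and a pair of overlapping TATAAA matches, on opposite strands, in the capitals downstream of it. The Peg3 window held TGACGTCA at position -178, and the Mest window held TGCCGC 2 times. TGCCGC was found in 5 of the 13 windows, of 4 members (Meg3, Mest, Plagl1 and Grb10, with 2 overlapping windows of Mest), against 11.6% of the 32851 windows in the table. TGACGTCA was in 2 of the 13 windows, against 1.79%, and TATAAA in 1, against 13.6%. A match describes the letters and does not show that a factor binds there.

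No gene listed as a neighbour of a member was called with all 9 libraries. Of 31 genes listed as neighbours in the members' clusters 21 were tested. The comparisons follow in the order old over young wild type, old P311-/- over old wild type and old P311-/- over young wild type. Limma called 0 neighbours in each, against 5.4%, 0.0703% and 0.4% of all genes. An unadjusted p under 0.05 by limma was found for 4, 0 and 5 neighbours, against 26.3%, 16.1% and 21.4% of all genes. Zim1, beside Peg3, stood at 11.7, 4.81 and 5.64 FPKM in old P311-/- muscle, against 6.46, 6.53 and 9.53 FPKM in old wild-type and 8.35, 7.95 and 6.76 FPKM in young wild-type muscle, with the library order of Peg3 and Plagl1 in the old groups. Copg2, which overlaps transcripts of the Mest locus, stood at 3.97 to 6.53 FPKM in old P311-/-, 5.95 to 7.74 FPKM in old wild-type and 6.43 to 6.65 FPKM in young wild-type muscle, a narrower span than that of Mest.

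Among 49 other imprinted genes listed, 39 were tested and 1 was called in each comparison with young wild type. Of all genes tested, 5.4% were called for old over young wild type and 0.4% for old P311-/- over young wild type. Snhg14, the host of the small nucleolar RNAs of the Prader-Willi cluster, was called higher in old than in young wild-type muscle at a log2 fold change of 1.49 (SE 0.36, limma adjusted p = 0.0469). It stood at 0.548, 0.497 and 0.370 FPKM in old P311-/-, 0.562, 1.05 and 0.880 FPKM in old wild-type and 0.326, 0.144 and 0.227 FPKM in young wild-type muscle, all low levels. Slc38a4, an amino acid transporter, was called lower in old P311-/- than in young wild-type muscle at -0.96 (SE 0.13, limma adjusted p = 0.0259). It stood at 12.7, 13.4 and 13 FPKM in old P311-/-, 18.0, 18.6 and 18.8 FPKM in old wild-type and 30.8, 23.5 and 22.7 FPKM in young wild-type muscle. Its old P311-/- libraries lay close together, unlike those of the members tested other than H19. These calls held in 6 of 18 alternatives for Snhg14 (adjusted p 0.0175 to 0.168 with limma) and 9 of 18 for Slc38a4 (adjusted p 0.00358 to 0.123 with limma), with the direction kept, and each was lost when any of 7 libraries was left out. Between old P311-/- and old wild type, limma called 0 of the 39, and 8 had an unadjusted p under 0.05, where 16.1% of all genes did.

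For the 3 members with the highest mean level, the genes with the most similar pattern over the 9 libraries were named from 10838 candidates by Pearson's r of log2 values, as a description. For H19 they were Bud31 (r = 0.966), Hjurp (r = 0.927) and Dusp14 (r = 0.923), and Bud31 stood at 18.0 to 22.1 FPKM in old P311-/-, 21.1 to 30.3 FPKM in old wild-type and 21.0 to 23.5 FPKM in young wild-type muscle. For Peg3 they were Lsm1 (r = 0.961), Maged2 (r = 0.955) and Tead2 (r = 0.95), and Maged2 stood at 95.8, 43.7 and 47.7 FPKM in old P311-/- muscle. For Mest they were Rftn2 (r = 0.99), Vangl1 (r = 0.973) and Lhfpl2 (r = 0.972), and Lhfpl2 stood at 3.24, 1.004 and 1.81 FPKM in old P311-/- muscle. The points share their libraries and scaling, and such values are the highest of many candidates.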

How the data were processed

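Poly(A) RNA of 9 libraries was sequenced by the authors. The submitters' processing notes name HISAT2 2.2.1, featureCounts 2.1.1, DESeq2 1.42.0 and the build mm39, without options, and strand use in counting is not stated in the sources used here. The authors deposited FPKM for 54532 genes, with gene lengths, and the positions in the table were those of GRCm38 for 98.3% of the gene identifiers shared with GENCODE M21, so positions are given on GRCm38. From FPKM, length and a scale for each library, whole reads could be recovered for 100% of values (tolerance 0.001). In all 9 libraries that scale kept a fixed proportion to the median-of-ratios size factor, and not to total reads. These reads gave the depth, 14222204 to 31910890 per library, and entered the filter, voom and total-count scaling.

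Values of FPKM with a pseudocount of 0.1 were log2-transformed and fitted for all 9 libraries, with no block, by limma-trend with robust eBayes (limma 3.58.1, R 4.3.3). The 14233 genes tested had 0.5 FPKM or more, and 10 recovered reads or more, in 3 or more libraries. This scale understates the change of low genes. P-values were adjusted by the Benjamini-Hochberg method over all genes tested in each comparison, and an adjusted p under 0.05 was a call. The procedure was tested on simulated data with the same spread setting for all genes and libraries. That test does not cover libraries of unequal quality, as found here. Alternatives were other pseudocounts, no filter, total-count scaling, voom, library quality weights, fits of 6 libraries, a replicate block, removal of length and GC trends, and leaving out each library. The labels do not say that the replicate numbers pair the samples, so they were not taken to do so.

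The genes named were all members, Nrep, neighbours in the members' clusters, called genes of the other lists (at most 4 per list), and the 3 genes most like each of the 3 most abundant members. The members, lists and rules were chosen with earlier results of these data known. MicroRNA and promoter sequences are from RefSeq on GRCm38.p6. Ratios to Meg3 and counts of library order were added after the values were seen.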

Additional observations from a re-analysis of the deposited data

How the results depend on the processing

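Of 486 member values under alternatives, 454 kept their direction and side of the threshold, 6 became calls and 26 changed sign, and no result for old over young wild type changed sign or became a call. For old P311-/- over old wild type, the signs of H19, Meg3, Rian and Mirg held in all 18 alternatives, and the log2 fold change of H19 ran from -1.03 to -0.54 (limma adjusted p 0.0228 to 0.732). Members called were 0 in each comparison except with quality weights, which gave 1 for old P311-/- over old wild type (H19) and 1 over young wild type (Grb10), and when a library was left out, which gave 0 to 0 for old over young wild type, 0 to 1 over old wild type and 0 to 3 over young wild type, the highest counts being those without old P311-/- replicate 1. Depth was 14222204 reads or more per library. The read counts of the hairpins were low, and the cause of this was not tested.

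All genes called, in the order old over young wild type, old P311-/- over old wild type and old P311-/- over young wild type, numbered 768, 10 and 57. They numbered 5, 9 and 23 with no filter, 346, 9 and 34 with total-count scaling, 2290, 2720 and 3173 with quality weights, 1653, 6 and 12 in fits of 6 libraries, and 12, 9 and 48 with GC and length trends removed. A pseudocount of 1 FPKM gave 87 and voom 139 in the last comparison. Leaving out a library gave 0 to 1755, 4 to 1875 and 4 to 2785. The share of calls that were higher in old wild type was 62.8% as deposited and 27.7% with total-count scaling, which moved the median log2 fold change of all genes by -0.131 for old over young wild type, -0.0106 for old P311-/- over old wild type and -0.141 for old P311-/- over young wild type.

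With the replicate number as a block, all genes called numbered 0 (3386 at an unadjusted p under 0.05), 4 and 5, and members 0 in each comparison. Same-numbered libraries did not deviate together (r from -0.101 to 0.145), so the numbers were not taken to pair the samples.

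Some log2 fold changes changed sign. For old P311-/- over old wild type, Peg3 was 0.00, and -0.0074 with total-count scaling, -0.0019 with voom, -0.24 with quality weights, -0.10 with trends removed and -0.30 to 0.16 with a library left out. Plagl1 was 0.01, and -0.0024, -0.10 and -0.013 with total-count scaling, quality weights and trends removed, and -0.45 to 0.49 with a library left out. Leaving out a library gave -0.25 to 1.33 for Dlk1, -1.37 to 0.11 for Mest and -0.25 to 0.15 for Grb10. For old P311-/- over young wild type it gave -0.19 to 0.89 for Meg3, -0.41 to 0.89 for Rian, -0.14 to 0.86 for Mirg, -1.17 to 0.41 for Dlk1 and -0.78 to 0.16 for Plagl1. Other log2 fold changes kept their sign but moved by over 1.5 times with a library left out: 0.58 to 1.66 for Meg3 and 0.08 to 1.38 for Rian over old wild type, and -2.01 to -0.53 for Mest, -0.57 to -0.12 for Peg3 and -0.69 to -0.29 for Grb10 in old P311-/- over young wild type. Moves of that size were also seen for old over young wild type. Leaving out a library gave 0.29 to 0.78 for H19, -1.12 to -0.47 for Meg3 and -0.82 to -0.20 for Rian there. It gave -1.59 to -0.69 for Mirg, -0.95 to -0.38 for Mest and -0.49 to -0.12 for Plagl1. For old P311-/- over young wild type, H19 ran from -0.38 to -0.16. The cause of these changes was not tested.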

Other observations

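Genes that keep imprints and genes of insulin-like growth factor signalling were also listed. Of 13 genes for maintenance of imprints 10 were tested, and between old and young wild-type muscle Dnmt3a, a DNA methyltransferase, and Ehmt2, a histone H3 methyltransferase, were called lower, beside 5.4% of all genes called in either direction. Dnmt3a stood at 5.19, 3.36 and 3.92 FPKM in old P311-/-, 4.18, 4.25 and 4.39 FPKM in old wild-type and 8.54, 8.07 and 7.11 FPKM in young wild-type muscle. Its log2 fold change was -0.87 for old over young wild type (limma adjusted p = 0.0308) and -0.93 for old P311-/- over young wild type (limma adjusted p = 0.0499), where it was the list's only call and 0.4% of all genes were called. Ehmt2 had a log2 fold change of -0.49 for old over young wild type (limma adjusted p = 0.048), at 10.2, 8.27 and 10.3 FPKM in old and 13, 14 and 13.2 FPKM in young wild type. Of 18 alternatives, 10 kept the Dnmt3a call for old over young wild type, 4 that for old P311-/- over young wild type and 7 the Ehmt2 call. The log2 fold change of Dnmt3a for old over young wild type ran from -1.0 to -0.47 (limma adjusted p 0.00754 to 0.24). That of Ehmt2 ran from -0.62 to -0.13 (limma adjusted p 0.018 to 0.572), and its call was lost when any library other than old P311-/- replicates 1 and 2 was left out, 7 in all.

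Of 20 genes of insulin-like growth factor and insulin signalling 18 were tested, and 2 were called, both lower in old than in young wild-type muscle, beside the same 5.4% of all genes. Irs1, an adaptor of the insulin receptor, stood at 3.34, 3.77 and 2.86 FPKM in old against 6.75, 9.15 and 7.54 FPKM in young wild type (log2 fold change -1.21, limma adjusted p = 0.0307). Igf2bp2, an RNA-binding protein, stood at 0.585, 0.473 and 0.280 FPKM in old against 1.33, 1.84 and 1.29 FPKM in young wild type (log2 fold change -1.57, limma adjusted p = 0.0357). In old P311-/- muscle Irs1 stood at 4.78, 2.62 and 3.66 FPKM and Igf2bp2 at 0.625, 0.393 and 0.308 FPKM. Both calls held in 10 of 18 alternatives and were lost without old wild-type replicate 2 or 3 or without any young wild-type replicate. Neither list had a call between old P311-/- and old wild type with limma, where 0.0703% of all genes were called. There 0 and 5 genes of the signalling list and 0 and 1 of the maintenance list had an unadjusted p under 0.05 in the lower and the higher direction. Of all genes, 16.1% had such a p in either direction.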
